A study of Mus musculus with 6 samples.

Results

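The genes described here carry out the first 2 steps of leucine, isoleucine and valine breakdown. They are the transaminase genes Bcat1 and Bcat2, the genes of the branched-chain ketoacid dehydrogenase complex Bckdha, Bckdhb, Dbt and Dld, and the kinase and phosphatase genes of that complex, Bckdk and Ppm1k. They were picked by gene symbol for their place in the pathway, with earlier results of these data known, and are 8 of the 49585 genes listed for each library. RNA was sequenced from 3 Bcat1-KO and 3 control libraries of mGB2, a mouse line labelled as glioblastoma stem cells. The control is marked NT in the design text, and neither group received a treatment. Both groups grew attached to matrix-coated plates in serum-free medium with N2 and B27 supplements, EGF and FGF until confluent, when RNA was isolated. The labels name neither the method of the knockout nor whether the Bcat1-KO cells are 1 clone or a mixed population. They also do not call the libraries of a group separate cultures, so each p-value reflects the spread among these libraries alone, and that spread may be technical.

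Branched-chain aminotransferases move the amino group of leucine, isoleucine or valine onto 2-oxoglutarate, which gives glutamate and a branched-chain keto acid. The reaction is reversible and takes place in the cytosol through the Bcat1 product and in mitochondria through the Bcat2 product. The keto acids are then decarboxylated in mitochondria by the branched-chain ketoacid dehydrogenase, a step that cannot be reversed and that is switched off by phosphorylation. Bcat1 is expressed in brain and in many gliomas, whereas Bcat2 is the form of most other tissues.

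The promoters are shown for the transaminase genes, which include the targeted gene, and for the kinase and phosphatase genes, the pair with opposite directions described below. Sequences are from RefSeq, build GRCm38.p6, whose table held 7 of the 8 genes and 10 windows of 300 bases, each running from 250 bases before an annotated start to 50 after it. Only bases before the start and outside annotated untranslated regions are printed, 5′ to 3′ on the gene's strand, with motif matches in capitals.
Bcat1, upstream start, chr6:145076185-145076407, minus strand: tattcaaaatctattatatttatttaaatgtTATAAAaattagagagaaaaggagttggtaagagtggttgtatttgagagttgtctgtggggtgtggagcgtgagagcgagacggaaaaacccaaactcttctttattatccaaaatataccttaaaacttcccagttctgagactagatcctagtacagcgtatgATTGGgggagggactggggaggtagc
Bcat1, downstream start, chr6:145048813-145049062, minus strand: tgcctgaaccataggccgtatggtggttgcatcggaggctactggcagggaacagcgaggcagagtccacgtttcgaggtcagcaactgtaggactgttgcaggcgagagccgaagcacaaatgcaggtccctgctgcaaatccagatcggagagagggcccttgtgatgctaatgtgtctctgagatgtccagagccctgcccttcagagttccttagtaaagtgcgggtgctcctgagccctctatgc
Bcat2, chr7:45569903-45570152, plus strand: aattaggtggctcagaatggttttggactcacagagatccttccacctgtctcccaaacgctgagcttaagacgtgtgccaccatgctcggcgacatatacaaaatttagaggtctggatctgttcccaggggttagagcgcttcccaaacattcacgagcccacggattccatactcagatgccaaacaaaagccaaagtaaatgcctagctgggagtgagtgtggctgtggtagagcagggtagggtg
Bckdk, chr7:127903823-127904072, plus strand: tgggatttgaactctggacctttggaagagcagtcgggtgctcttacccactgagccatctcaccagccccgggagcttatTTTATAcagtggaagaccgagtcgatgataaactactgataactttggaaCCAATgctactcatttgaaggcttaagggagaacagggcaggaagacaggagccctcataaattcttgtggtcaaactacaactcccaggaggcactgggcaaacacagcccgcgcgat
Ppm1k, chr6:57535488-57535737, minus strand: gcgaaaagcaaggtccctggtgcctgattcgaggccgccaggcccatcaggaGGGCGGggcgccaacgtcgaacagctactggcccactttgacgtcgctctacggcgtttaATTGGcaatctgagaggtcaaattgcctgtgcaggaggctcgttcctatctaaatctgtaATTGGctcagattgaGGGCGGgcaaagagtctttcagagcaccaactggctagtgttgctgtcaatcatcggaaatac
The 2 RefSeq starts of Bcat1 lie 27345 bases apart, and the GENCODE annotation gives 6 distinct starts for its 7 coding transcripts. The deposited counts, which are sums over the whole gene, do not separate these starts. In the upstream Bcat1 window the capitals mark a TATA box (TATAAA) and, on the opposite strand, a CCAAT box (CCAAT). The Bckdk window holds both motifs too, with the TATA box on the opposite strand. Relative to the annotated start, the TATAAA matches lie at -219 in Bcat1 and -169 in Bckdk. The Ppm1k window holds 2 CCAAT boxes on the opposite strand and 2 GC boxes (GGGCGG).

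Motifs were searched on both strands of the full windows, and no matches overlapped. The CCAAT box was in 6 of the 10 windows and in 37.4% of all 32817 windows. The GC box was in 2 of 10 and in 35.6% of all, and the TATA box in 2 of 10 and in 13.6% of all. The E-box CACGTG, which Myc family factors can bind, was in 0 of the 10 windows and in 7.15% of all. The ATF4 element searched here (TGATGNAAN) was in 0 of 10 and in 3.96% of all, the ERR element TCAAGGTCA in 0 of 10 and in 0.424%, and the cyclic AMP response element TGACGTCA in 0 of 10 and in 1.79%. These matches describe the letters in these windows and say nothing of binding. The 2 Bcat1 windows held 6 CpG dinucleotides at the upstream start and 16 at the downstream one, and the 2 Bcat2 windows held 13 and 9. Over all windows the median was 7 and the quartiles 3 and 20, so these values lie within the middle range.

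The libraries held 35608024 to 37800648 counts in Bcat1-KO and 29543157 to 33550412 in control, and 14020 genes were tested. The libraries of a group differed beyond counting noise. The chi-square per gene was 31.1 and 32.5 for Bcat1-KO replicate 1 against the other Bcat1-KO libraries, which differed from each other by 12.4, and 3.91 to 12.5 between control libraries. Several values are therefore also given without Bcat1-KO replicate 1. Of the neural stem and progenitor markers, 6 of 8 were higher in Bcat1-KO and 0 lower, where 32.0% of all tested genes were higher and 30.3% lower. Their summed level was 2271 to 2471 CPM (counts scaled to library size) in Bcat1-KO and 1476 to 1541 CPM in control, with Vim the largest part. Nes and Msi1 did not pass, and Prom1, called higher, averaged only 0.829 CPM in Bcat1-KO and 0 in control. The 6 leukocyte markers summed to 2.58 to 3.77 CPM in Bcat1-KO and 2.55 to 4.26 CPM in control, and 5 of them averaged under 1 CPM in both, with Itgam at 0. The 4 mature oligodendrocyte markers summed to 2.48 to 3.20 CPM in Bcat1-KO and 2.55 to 3.34 CPM in control, with Mog and Mag at 0, and the 4 endothelial markers to 0.249 to 0.780 CPM in Bcat1-KO and 0.826 to 0.994 CPM in control, with 1 of them called lower. The 5 fibroblast and mural markers summed to 11.6 to 12.1 CPM in Bcat1-KO and 62.9 to 66.4 CPM in control, mostly from Col3a1. In that list 2 genes were lower, and Col1a2, Dcn and Lum averaged under 1 CPM in both groups. The 4 mature neuron markers summed to 20.2 to 29.3 CPM in Bcat1-KO and 45.2 to 46.6 CPM in control. These sums come almost wholly from Syt1, which was higher (23.1 CPM in Bcat1-KO, 12.7 in control), and Rbfox3, which was lower (0.0719 and 33.1). Snap25 and Slc17a6 averaged under 1 CPM in both groups. The part of these marker differences in the results below was not tested. In bulk RNA, fewer cells of a type and less RNA per cell cannot be told apart.

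All 8 genes differed between Bcat1-KO and control. Bckdha, Bckdhb, Dld and Bckdk were higher in Bcat1-KO, and Bcat1, Bcat2, Dbt and Ppm1k were lower (quasi-likelihood test of edgeR, p adjusted over all genes tested and under 0.05). The same test called 62.3% of all tested genes, 32.0% higher and 30.3% lower. The Bcat1-KO and control values did not overlap for any of the 8 genes, nor for 67.7% of all tested genes, made up of 35.1% higher and 32.5% lower in Bcat1-KO. Most of the differences were small, and Bcat2 alone changed at least 2-fold. Of all tested genes, 19.2% both passed an adjusted p of 0.05 and changed at least 2-fold. Against a threshold of 1.5-fold Bcat2 alone passed, where 21.7% of all tested genes did. The median log2 fold change of all tested genes was 0.01.

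**Figure D1:**
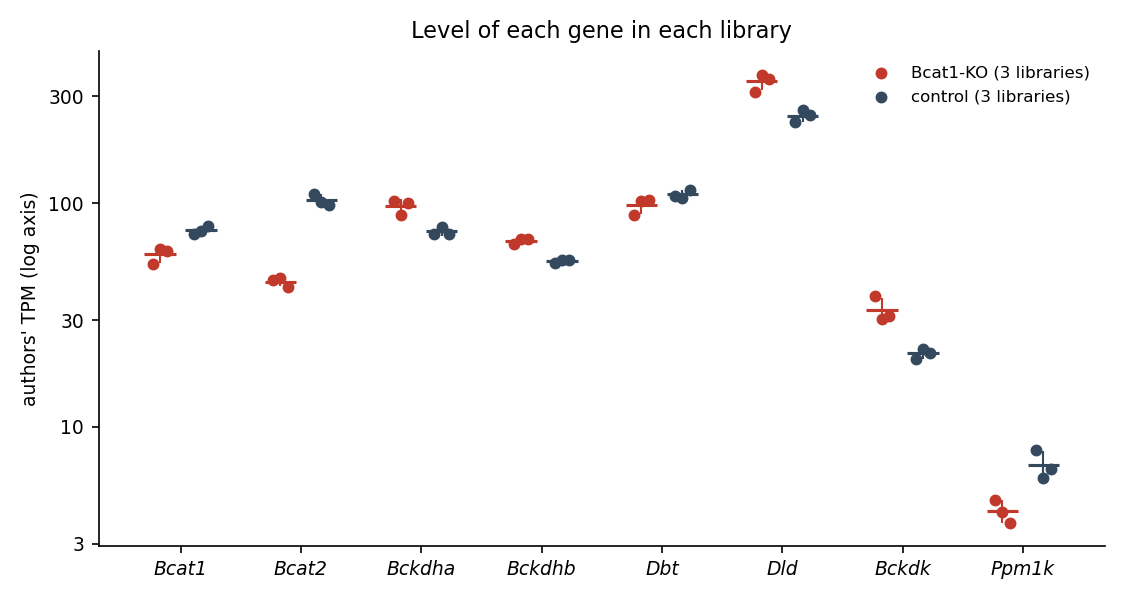
Level of each of the 8 genes in each library, in the authors' TPM on a logarithmic axis, with Bcat1-KO left of control; points are libraries, horizontal bars group means and vertical bars 1 SD (n = 3). The points of the groups are apart for all 8 genes, and the widest gap is that of Bcat2, with 44.5 TPM on average in Bcat1-KO and 103 TPM in control.

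Bcat2 (ENSMUSG00000030826.19, chromosome 7 from 45570153 to 45589711 in mm10, plus strand), which encodes the mitochondrial transaminase, had less RNA in Bcat1-KO than in control. It had 45.1, 46.2 and 42.3 TPM (the authors' values scaled by gene length and library) in the Bcat1-KO libraries, against 110.2, 101 and 98.4 TPM in the control libraries. The highest Bcat1-KO library lay far below the lowest control library. The level was 53.0 ± 2.65 CPM in Bcat1-KO and 127 ± 7.11 CPM in control (SD, n = 3 each), a log2 fold change of -1.26 (SE 0.07, edgeR adjusted p = 1.83e-08). Its level fell by 58.4%, and 2091 of the 14020 tested genes changed by more.

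Bcat1 (ENSMUSG00000030268.17, chromosome 6 from 144993835 to 145076184, minus strand), the targeted gene, encodes the cytosolic transaminase. Its RNA remained in every Bcat1-KO library, with 53.2, 62.5 and 61.4 TPM in Bcat1-KO, against 72.9, 74.8 and 78.9 TPM in control. The Bcat1-KO libraries all lay below the control libraries, replicate 1 farthest. The log2 fold change of Bcat1 was -0.41 (SE 0.07, edgeR adjusted p = 0.000355), or -0.37 without Bcat1-KO replicate 1. Of all tested genes 6565 changed by more than Bcat1. A sum of reads over all exons cannot tell an edited transcript apart from an intact one, and it gives no measure of the protein.

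The balance of both transaminase RNAs thus differed between the groups. Bcat1 stood at 1.18, 1.35 and 1.45 times the TPM of Bcat2 in the Bcat1-KO libraries, against 0.662, 0.743 and 0.802 times in the control libraries. Bcat1 had the higher TPM in each Bcat1-KO library and Bcat2 in each control library. That crossing rests on the exonic lengths by which TPM divides, 9322 bases for Bcat1 and 3900 for Bcat2. In read counts Bcat1 was above Bcat2 in every library of both groups. The mean ratio was 1.33 ± 0.137 in Bcat1-KO and 0.736 ± 0.0702 in control (SD, n = 3 each), a difference of 0.85 on the log2 scale. The exact two-sided permutation test gave p = 0.1, the smallest that 3 libraries against 3 can give, and p = 0.125 after Benjamini-Hochberg adjustment over the 5 ratios tested, so no ratio could pass 0.05 in this design.

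The E1 component of the dehydrogenase, which removes the carboxyl group from the keto acid, is built from alpha and beta chains. Bckdha (ENSMUSG00000060376.7, chromosome 7 from 25629946 to 25658981, minus strand), the alpha chain gene, had 60.7, 50.4 and 57.4 CPM in Bcat1-KO, against 43.5, 47.6 and 43.6 CPM in control. The lowest Bcat1-KO library was close above the highest control library. The log2 fold change was 0.32 (SE 0.08, edgeR adjusted p = 0.00438), or 0.24 without Bcat1-KO replicate 1. Bckdhb (ENSMUSG00000032263.14, chromosome 9 from 83925145 to 84124240, plus strand), the beta chain gene, had 36.8, 37.6 and 37.7 CPM in Bcat1-KO, against 30.7, 32.2 and 31.7 CPM in control. These values were tight within each group, and the log2 fold change was 0.25 (SE 0.07, edgeR adjusted p = 0.00634). With the local median of neighbouring genes subtracted the direction turned, to -0.12 (limma adjusted p = 0.185). The ratio of Bckdha to Bckdhb in TPM was 1.43 ± 0.148 in Bcat1-KO and 1.35 ± 0.0486 in control, and the groups overlapped (log2 difference 0.07, exact permutation p = 0.5, n = 3 each).

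Dbt (ENSMUSG00000000340.10, chromosome 3 from 116513070 to 116549981, plus strand) encodes the E2 core, which carries the lipoyl group and passes the acyl group to coenzyme A. It was lower in Bcat1-KO by the smallest margin of the 8 genes, with 92.3, 103 and 105 CPM in Bcat1-KO, against 114, 113 and 121 CPM in control. The log2 fold change was -0.21 (SE 0.07, edgeR adjusted p = 0.0185). This call did not hold without control replicate 3 (-0.19, edgeR adjusted p = 0.0763) or with limma on log2(TPM + 1), where the log2 fold change was -0.16 (adjusted p = 0.089).

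Dld (ENSMUSG00000020664.9, chromosome 12 from 31331564 to 31351437, minus strand) encodes dihydrolipoamide dehydrogenase, the E3 component, which the pyruvate and 2-oxoglutarate dehydrogenases and the glycine cleavage system also use. It had the highest TPM of the 8 genes in both groups, with 315, 374 and 359 TPM in Bcat1-KO, against 230.1, 260.0 and 248 TPM in control. Each Bcat1-KO library lay above each control library. The log2 fold change was 0.45 (SE 0.08, edgeR adjusted p = 0.000324). The E3 gene was higher and the E2 gene lower, so Dld stood at 3.57 ± 0.0890 times the TPM of Dbt in Bcat1-KO and 2.26 ± 0.184 times in control, without overlap (log2 difference 0.66, exact permutation p = 0.1, adjusted p = 0.125, n = 3 each). Dbt stood at 1.02 ± 0.150 times the TPM of Bckdha in Bcat1-KO and 1.47 ± 0.116 times in control, also without overlap (log2 difference -0.53, exact permutation p = 0.1, adjusted p = 0.125, n = 3 each).

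Bckdk (ENSMUSG00000030802.14, chromosome 7 from 127904082 to 127910221, plus strand) encodes the kinase that phosphorylates the E1 alpha chain and inactivates the complex, and its RNA was higher in Bcat1-KO. It had 44.1, 33.6 and 34.97 CPM in Bcat1-KO, against 23.3, 26.3 and 25.02 CPM in control. Bcat1-KO replicate 1 was the highest library, and the other Bcat1-KO libraries also lay above every control library. The log2 fold change was 0.59 (SE 0.10, edgeR adjusted p = 0.0004), or 0.44 without Bcat1-KO replicate 1 (adjusted p = 8.76e-05).

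Ppm1k (ENSMUSG00000037826.5, chromosome 6 from 57506502 to 57535468, minus strand) encodes the phosphatase that reverses this phosphorylation, and its RNA was lower in Bcat1-KO. It had the lowest TPM of the 8 genes in both groups, and in CPM it had 8.84, 7.56 and 6.80 CPM in Bcat1-KO, against 14.9, 11.4 and 12.3 CPM in control. Control replicate 1 was the highest library, and the groups did not overlap. The log2 fold change was -0.74 (SE 0.14, edgeR adjusted p = 0.000617).

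The kinase and phosphatase genes of the complex thus differed in opposite directions. Bckdk stood at 8.13, 7.24 and 8.39 times the TPM of Ppm1k in the Bcat1-KO libraries, against 2.55, 3.78 and 3.31 times in the control libraries. The lowest Bcat1-KO ratio was above the highest control ratio. The mean ratio was 7.92 ± 0.601 in Bcat1-KO and 3.21 ± 0.622 in control (SD, n = 3 each), a log2 difference of 1.32 (exact two-sided permutation p = 0.1, adjusted p = 0.125 over the 5 ratios). RNA levels do not show the phosphorylation of the complex.

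**Figure D2:**
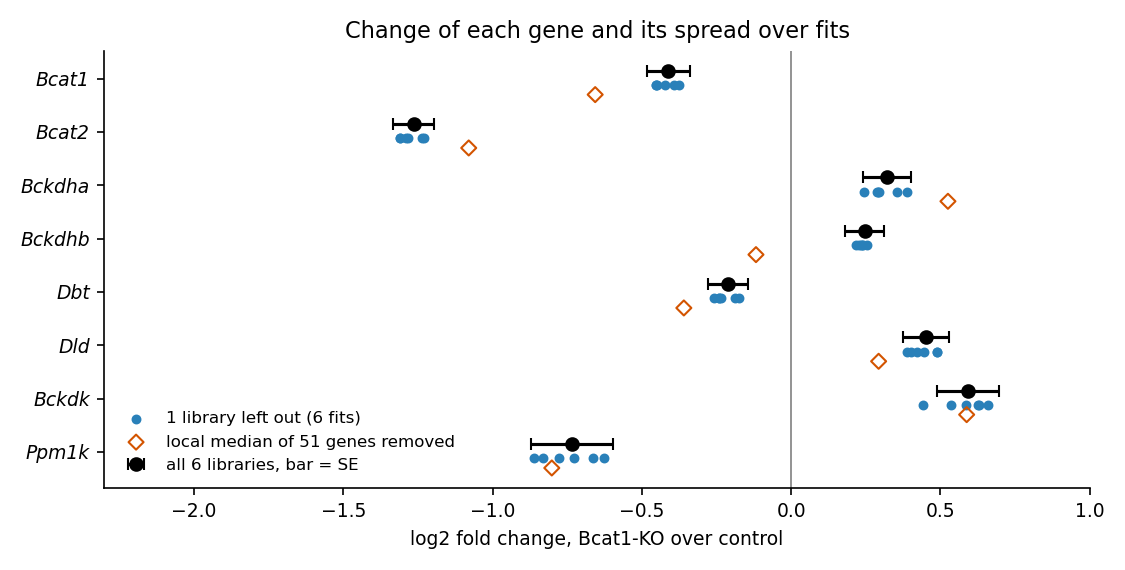
Log2 fold change of each of the 8 genes, Bcat1-KO over control, in edgeR's fit to all 6 libraries (black, bars 1 SE), with 1 library left out (blue) and after subtraction of the local median of 51 genes (open diamonds). The black values run between -1.26 for Bcat2 and 0.59 for Bckdk, with 4 genes on each side of 0, and the diamond of Bckdhb alone lies on the other side of 0 from its black point.

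**Figure D3:**
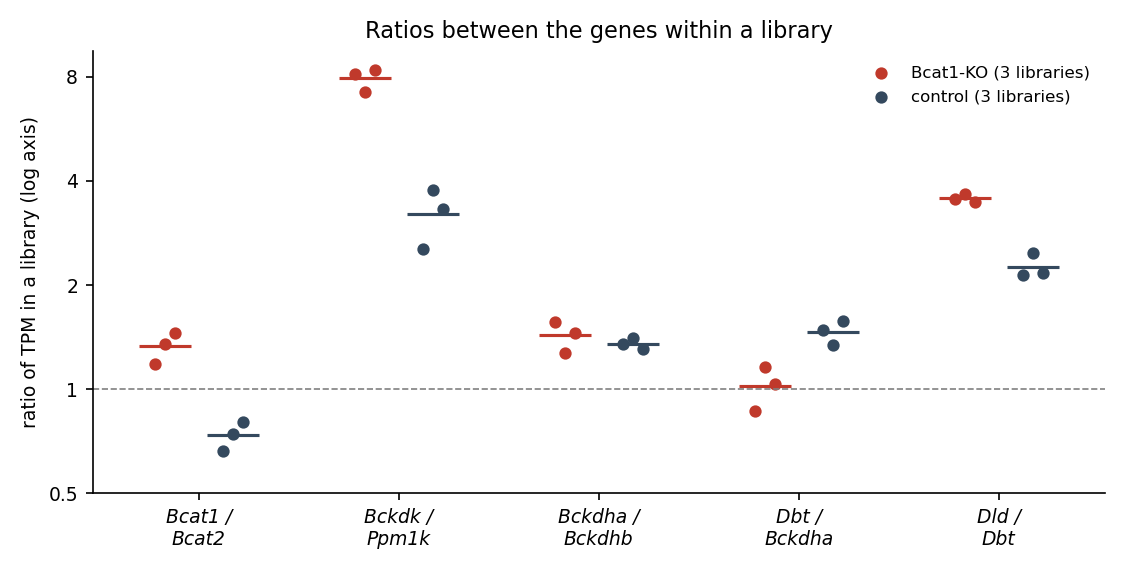
Ratio of the authors' TPM values of 2 genes within each library, on a logarithmic axis, with Bcat1-KO left of control and lines at group means. The groups are apart for 4 of the 5 ratios and overlap for Bckdha to Bckdhb.

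In TPM, which divides counts by exonic length, the order of the 8 genes differed between groups in the places of Bcat2 and Bcat1. The order within a group therefore depends on the annotated lengths. In Bcat1-KO it ran Dld, Dbt, Bckdha, Bckdhb, Bcat1, Bcat2, Bckdk and Ppm1k, and only Dbt and Bckdha overlapped as neighbours. In control it ran Dld, Dbt, Bcat2, Bcat1, Bckdha, Bckdhb, Bckdk and Ppm1k, where Dbt overlapped Bcat2 and Bcat1 overlapped Bckdha. Bcat2 was thus the sixth in Bcat1-KO and the third in control, where its libraries overlapped those of the E2 gene. Bcat1 stood above Bckdha and Bckdhb in control and below both in Bcat1-KO, and it overlapped Bckdhb in neither group. The range from Ppm1k to Dld was 83.2-fold in Bcat1-KO and 36.4-fold in control.

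The Bckdha values depend on strand. Of its 1899 exonic bases, 1171 (61.7%) overlap exons of B3gnt8, a glycosyltransferase gene on the opposite strand, and counting without regard to strand gave 3234 reads over the 6 libraries where the reverse-strand count gave 10435 (31.0%). B3gnt8 itself had 3 reverse-strand counts over the Bcat1-KO libraries and 0 over the control libraries. The log2 fold change of Bckdha was 0.38 with the unstranded counts, close to the 0.32 of the stranded ones. Bcat2 shares 622 exonic bases (15.9%) with the opposite-strand gene 0610005C13Rik, which had 2 and 5 counts over Bcat1-KO and control. Bcat1 shares 337 bases (3.62%) with Gm26666, which had 0 counts in both.

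Calls among the 50 nearest tested genes of each locus were counted beside those of all tested genes, 32.0% higher and 30.3% lower. Around Bcat2, 9 neighbours were higher and 21 lower in Bcat1-KO with a median log2 fold change of -0.20, and of the 10 nearest 7 were lower and 0 higher with a median of -0.80. These included Fgf21 (-1.99), a secreted metabolic hormone gene, and Rasip1 (-5.32), which were picked after their values were seen. Around Bcat1 the neighbours went the other way from the gene itself, with 28 higher, 9 lower and a median of 0.24. With the median of the local window subtracted from each library, the log2 fold change was -1.08 for Bcat2 (adjusted p = 9.36e-08, limma) and -0.66 for Bcat1 (adjusted p = 5.13e-06, limma).

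Bckdhb was the one gene of the 8 whose direction changed when the local median was subtracted. Its neighbours had a median log2 fold change of 0.39, with 25 higher and 7 lower, and 7 of the 10 nearest were higher and 0 lower. The other values moved by more than 1.5 times for Bckdha (0.53), Dbt (-0.36) and Dld (0.29), while Bckdk (0.59) and Ppm1k (-0.80) stayed close to the values given above. Whether the neighbouring genes and these genes share a cause was not tested.

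**Figure D4:**
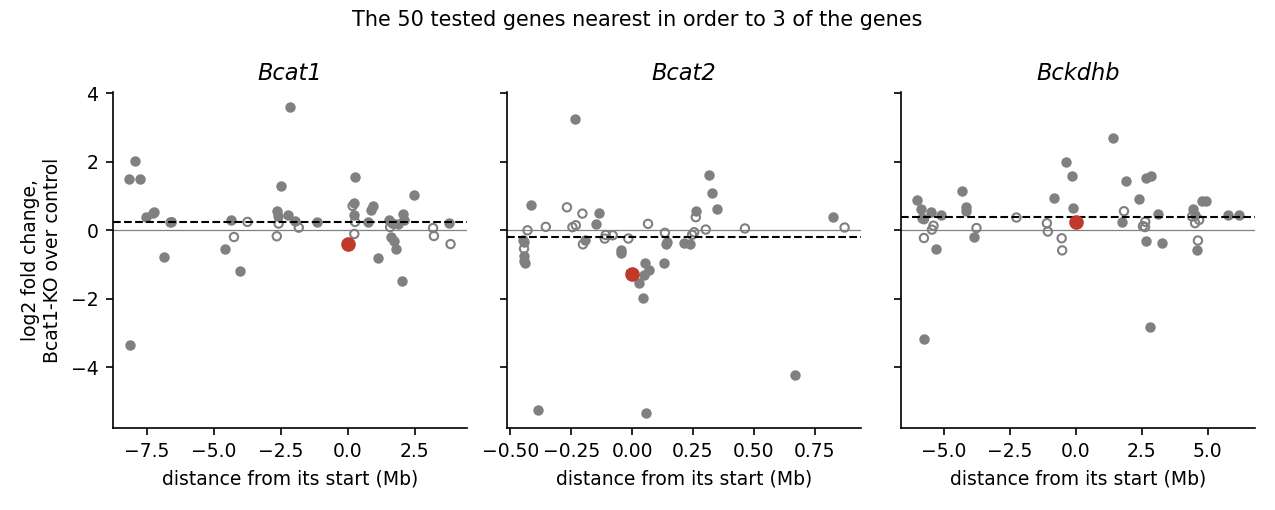
Log2 fold changes, Bcat1-KO over control, of the 50 tested genes nearest in order to Bcat1, Bcat2 and Bckdhb, by distance from the gene's start in Mb; filled points passed an adjusted p of 0.05, open points did not, the red point is the gene itself and the dashed line the median of its neighbours. Bcat2 and Bcat1 lie below the medians of their neighbours (-0.20 and 0.24), and so does Bckdhb (0.39).

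Unnamed gene models (Gm, Rik and clone symbols) and pseudogene symbols were left out when the genes most like Bcat1 and Bcat2 were named. Among the rest, the genes whose pattern over the 6 libraries was most like that of Bcat1 were Hes1, a Notch target that encodes a transcriptional repressor, Alg11, a mannosyltransferase gene, and Ints6, an Integrator subunit gene. Likeness was the root mean square difference of centred log2 CPM, 0.0191 for Hes1, 0.0202 for Alg11 and 0.0271 for Ints6. Counted over all tested genes, with none left out, 736 lay within 0.1. The pattern of Bcat2 was less common, with 44 tested genes within 0.1. The closest were Zak, a MAP kinase kinase kinase gene (0.0388), Deptor, which encodes an inhibitor of mTOR (0.0416), and Apeh, an acylpeptide hydrolase gene (0.0568). Deptor averaged 16.7 CPM in Bcat1-KO and 38.6 CPM in control. None of the other 7 genes lay within 0.1 of Bcat1 or of Bcat2, and the nearest to Bcat1 was Dbt at 0.102.

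Among enzymes further down the pathway more genes were higher in Bcat1-KO than lower. Of 18 tested genes 11 were higher, 3 lower and 4 did not pass, so that 77.8% were called against 62.3% of all tested genes, and the median log2 fold change was 0.39 against 0.01 over all. Acat1, the mitochondrial thiolase gene of isoleucine breakdown, had 255 ± 24.8 CPM in Bcat1-KO and 130 ± 3.48 CPM in control (log2 fold change 0.97, edgeR adjusted p = 5.75e-07). Mcee, the methylmalonyl-CoA epimerase gene, had 18.3 ± 4.57 CPM in Bcat1-KO and 9.87 ± 0.533 CPM in control (0.89, or 0.65 without Bcat1-KO replicate 1). Pccb, a chain of propionyl-CoA carboxylase (log2 fold change 0.70, or 0.39 with the local median subtracted), and Echs1, the short-chain enoyl-CoA hydratase (0.56), were also higher. The leucine branch was not uniform, since Ivd (-0.25) and Mccc1 (-0.18) were lower while Auh (0.44) was higher, and Aldh6a1 of the valine branch was lower (-0.34). These 4 genes were named after their values were seen.

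Among transporters of branched-chain amino and keto acids, 3 of 8 tested genes were higher, 1 was lower and 4 did not pass (median 0.05), so that 50% were called against 62.3% of all tested genes. Without Bcat1-KO replicate 1, 2 were lower, and with the local median subtracted 5 were higher. Slc43a1, a leucine-preferring facilitative transporter gene, had 6.02 ± 0.810 CPM in Bcat1-KO and 15.4 ± 0.809 CPM in control (log2 fold change -1.35, edgeR adjusted p = 1.47e-06). The related Slc43a2 went the other way, with 2.95 ± 0.192 CPM in Bcat1-KO and 1.45 ± 0.396 CPM in control (1.02, edgeR adjusted p = 0.00106, or 0.43 with limma on log2(TPM + 1)). Slc3a2, the heavy chain of the large neutral amino acid exchanger, had 764 ± 28.2 CPM in Bcat1-KO and 652 ± 16.3 CPM in control (0.23, edgeR adjusted p = 0.0138). That call was lost without Bcat1-KO replicate 3 (adjusted p = 0.0502), without control replicate 3 (0.073) and with the local median subtracted (0.0898). Its light chain Slc7a5 had 1098 ± 55.2 CPM in Bcat1-KO and 1029 ± 32.4 CPM in control and did not pass (0.09, adjusted p = 0.297).

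**Figure D5:**
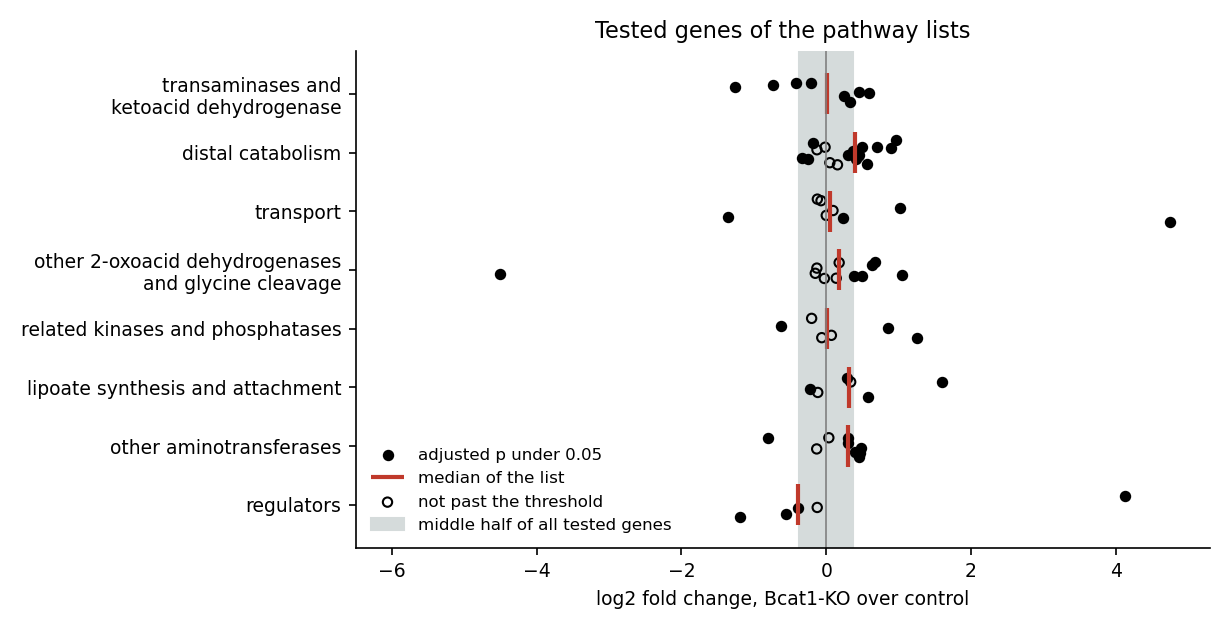
Log2 fold changes, Bcat1-KO over control, of the tested genes of 8 lists, with filled points past an adjusted p of 0.05, open points not past it and a line at each list's median; the shaded band spans the quartiles of all tested genes. The median of the distal catabolism list is 0.39 and that of the regulators -0.39, where Ppargc1a lies far to the right at 4.13.

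The pyruvate, 2-oxoglutarate and 2-oxoadipate dehydrogenases and the glycine cleavage system share the Dld product. Of their 11 tested genes 5 were higher, 1 was lower and 5 did not pass (median 0.18). That is 54.5% called, against 62.3% of all tested genes. Without Bcat1-KO replicate 1, 3 were lower, and without control replicate 1, 2 were lower. Dhtkd1, the E1 gene of the 2-oxoadipate dehydrogenase of lysine breakdown, was lower in Bcat1-KO, with 0.487 ± 0.0338 CPM in Bcat1-KO and 11.1 ± 0.369 CPM in control (log2 fold change -4.50, edgeR adjusted p = 4.13e-10, or -2.39 with limma on log2(TPM + 1)). Gldc, the decarboxylase gene of glycine cleavage, had 142 ± 5.78 CPM in Bcat1-KO and 68.7 ± 4.005 CPM in control (1.05, edgeR adjusted p = 8.3e-08). The pyruvate dehydrogenase genes Pdha1 (0.67) and Dlat (0.63) were higher as well, by 0.40 and 0.37 with the local median subtracted. Without Bcat1-KO replicate 1 the values were 0.56 for Pdha1 and 0.58 for Dlat.

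The kinases and phosphatases of pyruvate dehydrogenase, relatives of Bckdk and Ppm1k, gave 2 higher, 1 lower and 3 not past the threshold among 6 tested genes (median 0.01), or 2 lower without Bcat1-KO replicate 1. The share called was 50%, against 62.3% of all tested genes. Pdk2, a kinase gene, had 37.3, 22.3 and 23.4 CPM in Bcat1-KO, against 11.99, 12.7 and 9.95 CPM in control (log2 fold change 1.26, edgeR adjusted p = 8.72e-05), or 0.96 without Bcat1-KO replicate 1. Pdpr, the regulatory subunit of the phosphatase, was higher (0.85, or 0.75 without Bcat1-KO replicate 1). The phosphatase gene Pdp2 was lower (-0.63, edgeR adjusted p = 0.000579), but not with the local median subtracted (-0.06, adjusted p = 0.614).

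Lipoate, the cofactor that the Dbt product carries, is made from mitochondrial fatty acid synthesis. Of its 6 tested genes 3 were higher, 1 was lower and 2 did not pass (median 0.31), and the 66.7% called is near the 62.3% of all tested genes. Oxsm, the condensing enzyme gene, had 10.7 ± 1.27 CPM in Bcat1-KO and 3.54 ± 0.118 CPM in control (log2 fold change 1.60, edgeR adjusted p = 7.8e-07). Mcat (0.58, or 0.38 with the local median subtracted) and the lipoyl synthase gene Lias (0.29) were higher too, and Mecr was lower (-0.22, edgeR adjusted p = 0.0289), which did not hold without Bcat1-KO replicate 2 (adjusted p = 0.0506), without control replicate 2 (0.0915) or 3 (0.103), or with limma on log2(TPM + 1) (0.106), and was -0.35 with the local median subtracted.

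Other aminotransferases gave 6 of 9 tested genes higher, 1 lower and 2 not past the threshold (median 0.31), or 2 lower without Bcat1-KO replicate 1. That is 77.8% called, against 62.3% of all tested genes, of which 32.0% were higher and 30.3% lower. Of the 6 higher genes, Abat (log2 fold change 0.30) was also counted as higher among the enzymes further down the pathway. Kyat1 had 26.03 ± 0.649 CPM in Bcat1-KO and 18.7 ± 0.674 CPM in control (log2 fold change 0.48, edgeR adjusted p = 0.000205). Oat, the ornithine aminotransferase gene, was higher by 0.47, or by 0.32 without Bcat1-KO replicate 1. Kyat3 was higher by 0.45 (edgeR adjusted p = 0.0155), or by 0.23 without that library, and did not pass when control replicate 1 (adjusted p = 0.0679) or 3 (0.052) was left out. It also fell short under a gene length offset, alone (0.32, adjusted p = 0.0742) or with the replicate block (adjusted p = 0.085), and with the local median subtracted (0.18, adjusted p = 0.242). Gpt, the alanine aminotransferase gene of the cytosol, was the lower one, with 1.89 ± 0.268 CPM in Bcat1-KO and 3.30 ± 0.601 CPM in control (-0.80, edgeR adjusted p = 0.00316).

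Regulators known from other tissues gave 1 higher, 3 lower and 1 not past the threshold among 5 tested genes (median -0.39), so that 80% were called against 62.3% of all tested genes. Ppargc1a, a coactivator of mitochondrial genes, had 69.9, 62.4 and 66.3 CPM in Bcat1-KO, against 4.04, 3.53 and 3.75 CPM in control (log2 fold change 4.13, edgeR adjusted p = 9.3e-12). Myc, of which Bcat1 was described as a target in mouse, had 9.89, 15.05 and 15.9 CPM in Bcat1-KO, against 28.2, 32.6 and 32.5 CPM in control. The log2 fold change of Myc was -1.19 (edgeR adjusted p = 2.75e-05), or -1.02 without Bcat1-KO replicate 1. Its relative Mycn had 726 ± 60.2 CPM in Bcat1-KO and 950.2 ± 14.7 CPM in control (-0.39, edgeR adjusted p = 0.00122, or -0.66 with the local median subtracted). Klf15, which drives branched-chain catabolic genes in mouse muscle, had 25.7 ± 0.820 CPM in Bcat1-KO and 37.9 ± 2.14 CPM in control (-0.56, edgeR adjusted p = 3.96e-05).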

How the data were processed

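Column-purified, DNase-treated RNA went into stranded poly(A) libraries, per the labels' protocols. The submitters' processing notes name STAR 2.5.3a, featureCounts and mm10, and the sources used here do not name the annotation release. The deposited counts are raw reads per gene, and those on the reverse strand (96.4% to 96.5% of stranded reads) were tested. The authors' deposited TPM values served for ratios, gene levels and an alternative.

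Genes were kept by the edgeR 4.0.16 expression filter (14020 genes, 0.0511% of counts removed), scaled by TMM and tested without covariates by its quasi-likelihood test, and p-values were adjusted by the Benjamini-Hochberg method at 0.05. CPM values are scaled by TMM. SE is the log2 fold change over the root of its F statistic. In 1 library 3 counts are 0.0794 to 0.102 CPM. The common biological coefficient of variation was 8.26%. The script was tested on simulated data.

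Named were the 8 genes, the called genes of each list that changed most (up to 4, of a mean log2 CPM of 0 or more) and the 3 genes most like Bcat1 and Bcat2. Unnamed gene models and pseudogenes were left out of that last choice. The members and lists were chosen with earlier results of these data known. Exon overlaps and the number of Bcat1 transcript starts are from the GENCODE annotation of GRCm38. Alternatives were RLE and upper-quartile scaling, no filter, DESeq2 1.42.0, limma 3.58.1 (voom, and trend on TPM), unstranded counts, a replicate block, a 1.5-fold threshold, an offset for gene length, the local median of 51 genes removed and leaving out each library. Analyses used R 4.3.3 and Python 3.11.15. No library was left out of the main comparison.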

Additional observations from a re-analysis of the deposited data

How the results depend on the processing

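The 8 genes kept their directions under every alternative run, except Bckdhb with the local median of 51 genes removed (-0.12). Against a 1.5-fold threshold in edgeR, 1564 genes were higher and 1481 lower, and of the 8 genes 0 were higher (0 also at an unadjusted p under 0.05) and 1 was lower. Leaving out 1 library at a time gave 3871 to 4589 genes higher and 3846 to 4741 lower, and 4 of the 8 genes higher each time and 3 to 4 lower. The log2 fold changes then ranged over -1.31 to -1.23 for Bcat2, -0.45 to -0.37 for Bcat1, 0.44 to 0.66 for Bckdk and -0.86 to -0.63 for Ppm1k. Bckdha ranged over 0.24 to 0.39, Bckdhb over 0.22 to 0.25, Dbt over -0.26 to -0.18 and Dld over 0.39 to 0.49. A gene length offset gave -0.55 for Bcat1. Same-numbered libraries did not deviate together (r = -0.05, -0.07 and 0.16), so the numbers were not taken as pairs. With a replicate block 8662 genes were called, against 8735 without it, and all 8 genes passed in the same directions. For the ratios the block flips the signs of the 3 differences between same-numbered libraries. The exact p of that test was 0.25 for 4 ratios and 0.5 for Bckdha to Bckdhb, and 0.25 is the smallest it can give. With limma on log2(TPM + 1), 57.3% of calls were higher in Bcat1-KO, against 51.3% of the calls in edgeR. Without the block, with 3 libraries a group, the exact permutation test of a ratio cannot go below 0.1.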

Other observations

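Some list genes lay near the limit of counting and outside the rule for naming. Slc16a7, a monocarboxylate transporter gene, had 23, 21 and 30 counts in the Bcat1-KO libraries, against 0, 0 and 2 in the control libraries, and passed the test as higher in Bcat1-KO. Slc16a3, its relative that exports lactate, had 0 counts in every library, and Pdk4 had 0 counts over the Bcat1-KO libraries and 1 over the control libraries. Slc7a8 had 1 count over the Bcat1-KO libraries and 12 over the control libraries, Slc6a15 had 2 and 4, Aadat 2 and 6, and Mlxipl 10 and 4. Those 6 genes were not tested.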
